A study of Homo sapiens with 12 samples.

Results

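The 77 genes described here encode the proteins of the cytosolic ribosome, the particle that translates messenger RNA in the cytoplasm. They were chosen by name alone, as entries on assembled chromosomes whose symbol is RPL, RPS, RPLP or RPSA with its number or letter, and they are 77 of 46931 genes in the table. Of these, 46 belong to the large subunit, which forms peptide bonds, and 31 to the small subunit, which reads the messenger RNA. All 77 passed the filter on low counts and were tested. RNA came from MCF10A, an immortalised human mammary epithelial cell line. Cells were transfected with control siRNA (22 nM) or with 2 siRNA sets, directed at YAP and at TAZ (11 nM), and 48 h later were kept for 6 h in DMSO or in XMU-MP1 (5 µM), which inhibits the Hippo kinases MST1 and MST2. The 4 groups, of 3 libraries each (a, b and c), are called siC_DMSO (control siRNA, DMSO), siC_XMU (control siRNA, XMU-MP1), siYT_DMSO (YAP and TAZ siRNA, DMSO) and siYT_XMU (YAP and TAZ siRNA, XMU-MP1). Every group carries an siRNA and all come from the 1 cell line. The labels do not say that the letters are separate cultures, so p-values measure the spread between these libraries, which may be technical.

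As background, each ribosome takes in almost every one of its proteins as a single copy. Their messenger RNAs are abundant and stable, and most begin with a terminal oligopyrimidine (TOP) motif, a C followed by an unbroken run of C and T, through which the kinase mTORC1 and the protein LARP1 control their translation. YAP and TAZ (gene WWTR1) are the transcriptional co-activators at the end of the Hippo pathway, which act through TEAD factors, and MST1 and MST2 stand at its top.

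The first transcribed bases are shown to make the TOP motif visible in genes from both ends of the response to the siRNA. Each run gives 10 bases before and 20 bases from the annotated first base, from RefSeq on GRCh38.p14, with the C and T run that starts at the first base in capitals. The first 6 lines are RPLP0, RPL3, RPL10A, RPL21, RPSA and RPS6, whose siYT_DMSO libraries all lay below siC_DMSO, and the last 4 are genes whose siYT_DMSO libraries all lay above.
RPLP0, minus strand, chr12:120201092-120201121: ggcgcgaggcCCTTCTCTCgccaggcgtcc
RPL3, minus strand, chr22:39319604-39319633: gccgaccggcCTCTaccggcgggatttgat
RPL10A, plus strand, chr6:35468391-35468420: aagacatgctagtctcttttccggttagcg
RPL21, plus strand, chr13:27251548-27251577: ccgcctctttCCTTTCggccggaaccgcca
RPSA, plus strand, chr3:39406710-39406739: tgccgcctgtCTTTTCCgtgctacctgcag
RPS6, minus strand, chr9:19380217-19380246: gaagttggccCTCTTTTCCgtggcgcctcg
RPL34, plus strand, chr4:108620566-108620595: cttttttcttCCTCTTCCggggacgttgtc
RPL38, plus strand, chr17:74203668-74203697: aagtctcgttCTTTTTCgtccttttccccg
RPL28, plus strand, chr19:55385922-55385951: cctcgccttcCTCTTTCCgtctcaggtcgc
RPL13, plus strand, chr16:89560672-89560701: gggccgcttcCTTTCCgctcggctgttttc

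RefSeq promoter sequences matched 62 of the 77 genes. In 46 of the 62 (74.2%) the annotated first base was a C followed by at least 4 bases of C or T, against 5.14% of the 27305 genes in the promoter table. RPL3 has a run of 4 in all, and RPL10A has no run at its annotated first base, so neither counts as TOP-like by these letters. With a run allowed to start within 5 bases of the annotated start the shares were 85.5% and 25.2%. In the window of 300 bases from 250 before to 50 from the first base, on either strand, the ETS word CCGGAAG was found in 35.5% of the 62 genes and in 12.2% of all genes, and the YY1 word AAGATGG in 12.9% and 7.11%. The E-box CACGTG was found in 6.45% of the 62 and 8.77% of all genes, the TATA word TATAA in 19.4% and 24.2%, and the TEAD word GGAATG in 8.06% and 16.7%. By the first-base rule, genes with and without a TOP-like start had similar medians. By the wider rule 53 of the 62 had one, so the group without it by the first-base rule includes genes with a nearby run. After the siRNA in DMSO the median log2 fold change was -0.0021 for the 46 genes with a TOP-like start and -0.01 for the 16 without one, and in XMU-MP1 it was 0.15 and 0.17. Without siYT_XMU library c, which is described below, the medians in XMU-MP1 were 0.46 and 0.45. RPLP0 and RPL34, at opposite ends of that response, both carry such a start.

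Levels per transcript length, as the FPKM that the authors deposited, spread widely among the 77 genes. In siC_DMSO the highest were RPS2, a small-subunit protein at the messenger RNA entry site, at 3837 ± 193 FPKM (mean ± SD, n = 3), RPL8 at 2595 ± 70.0, RPLP0 at 2431 ± 83.7 and RPL13A at 2401 ± 150.2. RPLP0 and RPL13A differed by less than their spread. RPLP2, which is among the 5 highest over all libraries, stood at 1981 ± 71.5 FPKM. The lowest were RPS9 at 0.825 ± 0.174 FPKM, RPS29 at 21.9 ± 0.846, RPL37 at 101 ± 2.79, RPS28 at 113 ± 12.4 and RPL14 at 114 ± 2.60. RPS28 and RPL14 differed by less than their spread. This order depends on the length assigned to each gene and is not that of the counts. In siC_DMSO library a RPL14 had 48038 counts and 115 FPKM, and RPL18 had 49303 counts and 1315 FPKM. The order of the 77 genes was similar between libraries, with a Spearman's rho of the FPKM from 0.94 to 0.995 over 66 pairs, as a description across genes.

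RPS9, a core protein of the small subunit, had 460 counts in all 12 libraries together, and the 3 RPS9 pseudogene entries of the same table had 382305. Pseudogenes are near-identical copies of ribosomal protein genes scattered over the genome, and how reads that fit both were assigned is not given in the sources used here. The pseudogene entries number 1540 and cover 75 of the 77 genes. For most genes their counts were small, with a median of 2.04 per 100 counts of the gene, but they were over 10 per 100 for 21 genes. The ratio was 628 per 100 for RPS18, 144 for RPS28, 127 for RPL9, 85.9 for RPL36A, 80.1 for RPS26, 49.5 for RPL41 and 43.3 for RPL21, so that values of these genes, like those of RPS9, are uncertain. It was 4.97 per 100 for RPLP0, 7.44 for RPL3, 11.9 for RPS2, 1.32 for RPL34 and 0.138 for RPS6.

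The libraries held 8243351 to 67953633 counts. YAP1 stood at 132 to 223 CPM in the 6 control siRNA libraries and at 3.81 to 12.6 in the 6 libraries with siRNA against it (CPM are counts scaled to the library's size, here with the TMM factors of edgeR). WWTR1 stood at 24.005 to 60.3 CPM in the control siRNA libraries and at 0 to 4.47 in the others. The 10 markers of basal mammary epithelium were all detected in every group and summed to 6475 to 8972 CPM in the control siRNA libraries, 6813 to 19021 in siYT_DMSO and 13128 to 23652 in siYT_XMU, the last above all control libraries. After the siRNA in DMSO 3 of the 10 rose and 3 fell, where 16.1% and 16.0% of all genes did. Leukocyte markers summed to 20.1 to 61.3 CPM in the control siRNA libraries and to 69.8 to 199.7 in the others, with 2 to 4 of 6 at 0 in a group. Fibroblast markers summed to 11.1 to 26.9 and 23.5 to 135 CPM with at most 1 of 6 at 0, and endothelial markers to 0.918 to 8.49 CPM with 1 or 2 of 5 at 0. Their part in the results was not tested.

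Library c of siYT_XMU stood apart from the other 11. It had the fewest counts, 35.0% of them on ribosomal RNA against 1.02% to 8.35% elsewhere, and 15135 genes detected against at least 17950. All 77 ribosomal protein genes were lowest in it among the 3 siYT_XMU libraries. Most counts and medians that use siYT_XMU are therefore given with and without it. Library c of siC_XMU was the lowest of its group for 75 of the 77 genes, with 1.02% of its counts on ribosomal RNA.

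The summed share of the 77 genes was lower after the siRNA in DMSO than in any control library. It was 8.06%, 7.89% and 7.67% of counts in siC_DMSO libraries a, b and c, and 9.48%, 8.89% and 7.82% in siC_XMU. In siYT_DMSO it was 6.17%, 6.30% and 6.18%, and in siYT_XMU 8.15%, 8.75% and 2.82%. The siYT_XMU libraries a and b lay within the range of the control libraries. With ribosomal RNA entries left out of the totals the means (± SD, n = 3) came to 7.99% ± 0.233 for siC_DMSO, 8.87% ± 0.919 for siC_XMU, 6.52% ± 0.219 in siYT_DMSO and 7.31% ± 2.58 in siYT_XMU, where library c held 4.34%. A share of counts and a TMM-scaled level are different measures. The TMM factors, which bring the bulk of all genes to a common level, were 1.15 to 1.17 in siC_DMSO and 0.950 to 1.08 in siYT_DMSO, and on that scale the median of the 77 genes differed little between those groups, as given below. In siC_XMU the factors were 1.06 to 1.14. They were lowest in siYT_XMU, at 0.920, 0.851 and 0.586 for libraries a, b and c. The share and the TMM-scaled level are both relative to the rest of the library, so neither gives a number of cells or an amount of RNA per cell. In such bulk libraries a change in part of the cells and a change in every cell cannot be told apart.

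**Figure D1:**
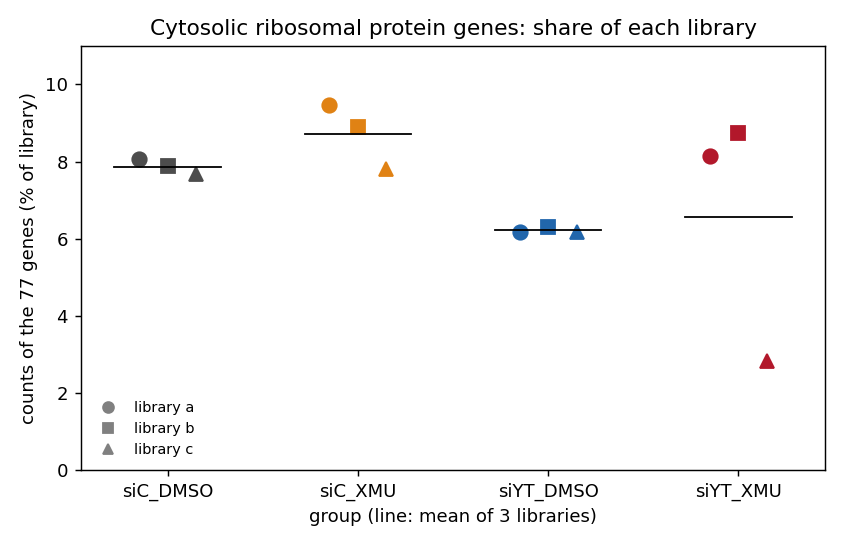
Share of each library's counts (y axis, percent) taken by the 77 ribosomal protein genes, by group (x axis), with 1 point per library and a line at the mean of 3. The siYT_DMSO libraries lie between 6.17% and 6.30%, below all control siRNA libraries, and siYT_XMU library c lies alone at 2.82%.

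Counts of the large-subunit genes over those of the small-subunit genes ranged from 1.66 to 1.76 over the 12 libraries. Library c of siYT_XMU, at 1.66, was the lowest, next to library a of that group at 1.67.

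The first comparison set the siRNA against YAP and TAZ beside the control siRNA in DMSO. RPLP0 and RPL3 fell, and the values of most other genes lay near 0. RPLP0 encodes the base of the ribosomal stalk, the arm of the large subunit that recruits translation factors, and RPL3 encodes a protein that reaches towards the peptidyl transferase centre. By edgeR's quasi-likelihood test with Benjamini-Hochberg adjustment over 18143 genes, 0 of the 77 rose and 2 fell, where 16.1% of all genes tested rose and 16.0% fell. The median log2 fold change was -0.04 over the 77 genes and 0.02 over all genes, and the quartiles of the 77 lay at -0.22 and 0.08. Of the 77 values 42 were negative and 35 positive. The medians of the large and small subunit were -0.03 and -0.05.

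RPLP0 (gene ID 6175, chr12:120196699-120201211 on GRCh38.p13) had CPM values of 2691, 2892.5 and 2716 in siC_DMSO libraries a, b and c, 3729, 3719.9 and 3096 in siC_XMU, 1429.8, 1395 and 1376 in siYT_DMSO, and 1830.4, 2421 and 1059.5 in siYT_XMU. Every library with siRNA against YAP and TAZ was below every control siRNA library. In DMSO the log2 fold change of RPLP0 was -0.98 (SE 0.25), which is 1.98-fold lower, with an adjusted p of 0.0109 by edgeR. It was called in all 12 fits that left out 1 library, with adjusted p from 2.96e-04 to 0.0410. On the deposited FPKM, limma gave adjusted p of 0.0746 with a pseudocount of 0.1 and 0.0584 with 1. RPLP1 and RPLP2, the acidic proteins that bind RPLP0 to complete the stalk, had log2 fold changes of -0.21 and 0.13, and neither was called.

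RPL3 (gene ID 6122, chr22:39312882-39319623) had CPM values of 2516, 2442 and 2415 in siC_DMSO, 3339, 3216 and 2612 in siC_XMU, 1635, 1379 and 1365 in siYT_DMSO, and 2238, 2674 and 1183 in siYT_XMU. The siYT_DMSO libraries lay below all control libraries, whereas siYT_XMU overlapped them. In DMSO the log2 fold change of RPL3 was -0.75 (SE 0.26), with an adjusted p of 0.0448 by edgeR. The call was lost in 9 of the 12 fits that left out 1 library. Over the 12, the fold change stayed between -0.84 and -0.71 and the adjusted p ran from 0.00172, without siYT_XMU library c, to 0.128.

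RPS6 (gene ID 6194, chr9:19375715-19380236), the small-subunit protein that S6 kinases phosphorylate downstream of mTORC1, had CPM values of 1517, 1535 and 1474 in siC_DMSO, 1937, 1773 and 1552 in siC_XMU, 1238, 1173 and 1229.98 in siYT_DMSO, and 1628, 1864 and 1144 in siYT_XMU. The siYT_DMSO libraries were below all control libraries. The log2 fold change in DMSO was -0.31 (SE 0.19, adjusted p 0.243 by edgeR), which did not pass the test.

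**Figure D2:**
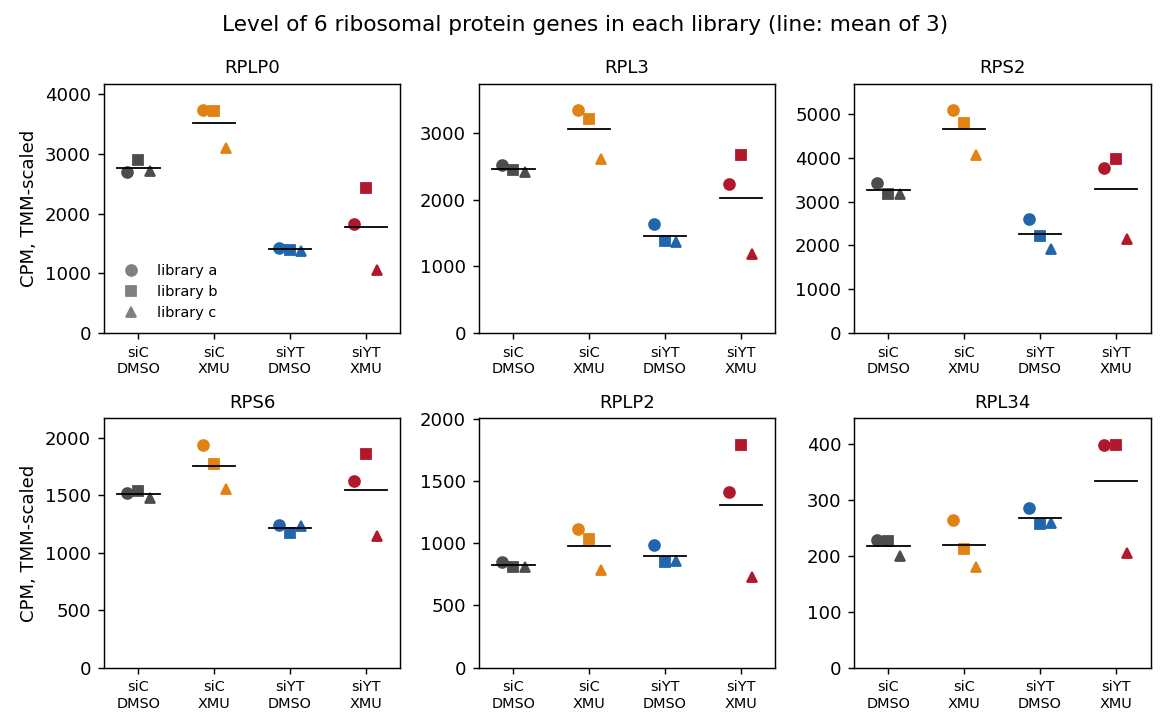
TMM-scaled CPM (y axes, from 0) of 6 ribosomal protein genes in each library, by group (x axes), with a line at the mean of 3 libraries. RPLP0 lies below the control libraries in all 6 libraries with siRNA against YAP and TAZ, whereas RPL34 and RPLP2 do not.

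Leaving out siYT_XMU library c, which takes no part in this contrast but enters the shared estimate of the spread, changed the count. In that fit 8 of the 77 genes fell and 0 rose, where 18.8% of all genes fell. The 8 were RPLP0, RPL3, RPS9, RPL10A, RPS2, RPL21, RPL6 and RPSA. RPL10A, a protein of the L1 stalk through which used transfer RNA leaves, had CPM values of 833, 786 and 757 in siC_DMSO and 599, 464 and 497 in siYT_DMSO, with no overlap. Its log2 fold change was -0.61 with adjusted p of 0.0902 by edgeR with all libraries and 0.00514 without that library. RPS2 had CPM values of 3427, 3183 and 3173 in siC_DMSO and 2608, 2218 and 1930.5 in siYT_DMSO, also with no overlap. Its log2 fold change was -0.53 with adjusted p of 0.114 and 0.0140 by edgeR in the same 2 fits. RPL21, RPL6 and RPSA, the last also known as the laminin receptor, had values of -0.44, -0.43 and -0.40 without that library.

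Counted by libraries rather than by the test, 23 of the 77 genes had all siYT_DMSO libraries below all siC_DMSO libraries, where 27.9% of all genes tested had, and 10 had them above, where 26.2% had. The highest fold changes included those of RPL34 (0.29), RPS16 (0.29), RPL13 (0.23) and RPL28 (0.20), none of them called. RPL34, a large-subunit protein, had CPM values of 229, 226 and 199 in siC_DMSO and 285, 257 and 258 in siYT_DMSO, without overlap. Of the genes highest in FPKM, RPL8 and RPL13A lay at -0.20 and -0.19. Of those lowest in FPKM, RPS28, RPS29, RPL37 and RPL14 lay at 0.07, 0.01, 0.00 and -0.21. None of these was called. RPS9 had 55, 73 and 91 counts in siC_DMSO and 4, 11 and 20 in siYT_DMSO, a log2 fold change of -2.06 (SE 0.83, adjusted p 0.0793 by edgeR). With the pseudogene counts added to each gene it was -0.32 (adjusted p 0.416 by edgeR).

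In XMU-MP1 the siRNA comparison again called RPLP0. With all libraries 0 of the 77 genes rose and 2 fell, RPLP0 and RPS9, where 17.7% and 18.6% of all genes did. The log2 fold change of RPLP0 was -0.99 (SE 0.25, adjusted p 0.00976 by edgeR), and it was called in all 12 fits that left out 1 library, with values from -1.29 to -0.73. RPS9 had 116, 26 and 45 counts in siC_XMU and 11, 8 and 0 in siYT_XMU, a log2 fold change of -2.57 (SE 0.88, adjusted p 0.0379 by edgeR). Its call was lost in 8 of the 12 fits, and with pseudogene counts added the value was -0.29 (adjusted p 0.439 by edgeR). RPL3 lay at -0.59 (SE 0.26, adjusted p 0.0969 by edgeR), RPS6 at -0.18 (adjusted p 0.488 by edgeR) and RPL10A at -0.43. Without siYT_XMU library c these values were -0.32, -0.01 and -0.16, none of them called. Without siYT_XMU library b RPL3 lay at -0.85 and was called (adjusted p 0.0306 by edgeR), the 1 of 12 such fits that did so. In RPLP0, RPS9 and RPS2 all siYT_XMU libraries were below all siC_XMU libraries, 3 of the 77 genes where 25.9% of all genes had this order.

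For the other genes the values moved with 1 library. With all libraries the median was 0.14, against 0.04 for all genes, and 51 of the 77 values were positive. When siYT_XMU library c was left out the median was 0.41 against 0.07, and 34 genes rose and 1 fell, where 19.3% of all genes rose and 18.7% fell. Leaving out library b of that group turned the median to -0.13, and on the deposited FPKM with a pseudocount of 0.1 it was -0.50, against -0.43 for all genes. RPLP0, the 1 gene called in both fits, had a log2 fold change of -0.73 (SE 0.16, adjusted p 0.00432 by edgeR) without library c. The highest values with all libraries included those of RPL34 (0.61), RPLP2 (0.42), RPL38 (0.41) and RPL37A (0.41), none of them called.

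RPL34 had CPM values of 263, 212 and 180.1 in siC_XMU and 397, 397 and 204 in siYT_XMU, so that libraries a and b lay above the range of the controls and library c within it. Without library c its log2 fold change was 0.86 (SE 0.15, adjusted p 0.00147 by edgeR), and RPL37A, RPLP2 and RPS28 rose by 0.72, 0.70 and 0.70. RPLP2 had CPM values of 1113, 1036 and 786 in siC_XMU and 1412, 1787 and 730.1 in siYT_XMU, so that library c lay below the control range and the other two above it. With all libraries, scaling by upper-quartile factors called 4 genes higher and 2 lower, where 21.4% and 15.6% of all genes were.

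**Figure D3:**
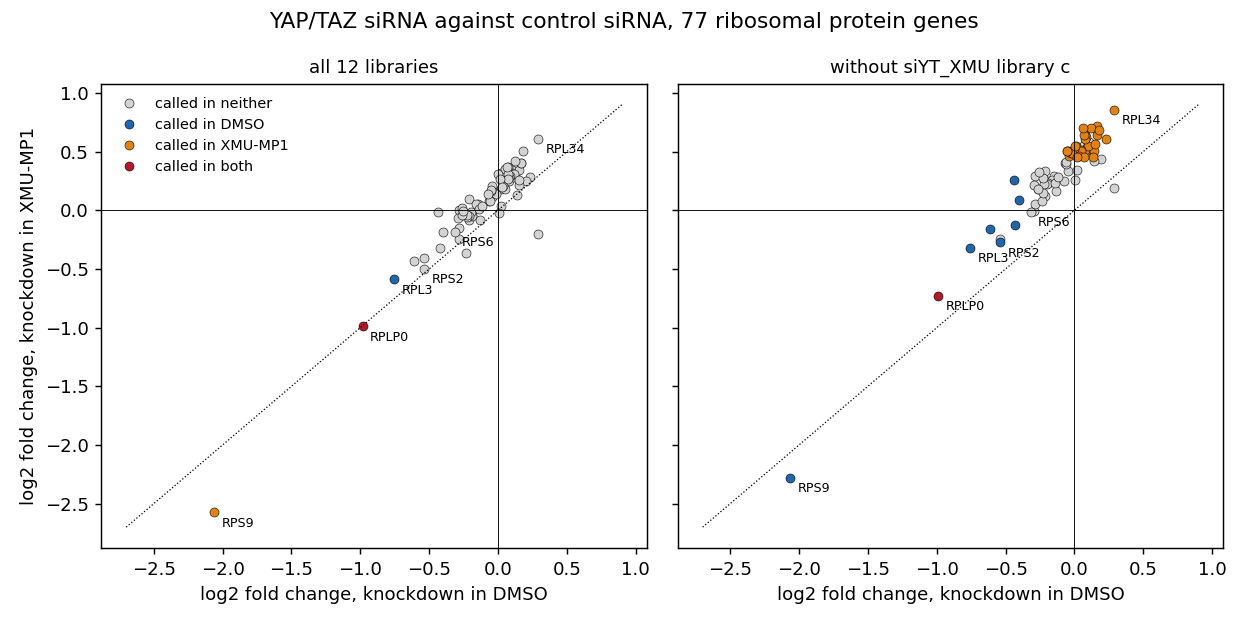
Log2 fold change of the 77 genes after siRNA against YAP and TAZ in DMSO (x axis) and in XMU-MP1 (y axis), with all 12 libraries (left) and without siYT_XMU library c (right), coloured by the call at an adjusted p of 0.05 by edgeR. RPLP0 is called lower on both axes in both panels, and the points lie higher on the y axis in the right panel, where 34 genes rose in XMU-MP1.

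The siRNA comparisons in DMSO and in XMU-MP1 share no library. Across the 77 genes their log2 fold changes had a Pearson r of 0.95 and a Spearman rho of 0.85, and 0.89 and 0.85 over the 76 genes without RPS9, as a description across genes that share libraries within each contrast. Proportions among the 77 genes need no scaling between libraries, but they add up to a fixed total. A fall of abundant members therefore raises the shares of the others. As a share of their summed counts, 18 genes were higher in all 6 libraries with siRNA against YAP and TAZ than in all 6 control libraries, 6 were lower and 53 overlapped. Taken against the same sum, 9.74% of all genes tested were higher and 8.42% lower without overlap, though genes outside the 77 are not bound by that total. On the TMM scale the log2 fold changes of the 18 in DMSO ran from -0.04 for RPL23 to 0.29 for RPL34.

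The 6 lower genes were RPLP0, RPL3, RPS2, RPL10A, RPSA and RPL10, the last a protein added late in large-subunit maturation. RPLP0 took 3.90% to 4.54% of the sum in the control libraries and 2.07% to 2.38% in the others, and RPL3 took 3.57% to 3.93% and 2.29% to 2.60%. For RPS2 the ranges were 4.66% to 5.93% and 3.23% to 4.43%. Among the 18 higher genes, RPL34 took 0.258% to 0.331% in the control libraries and 0.386% to 0.448% in the others. RPL11, which forms the 5S particle with RPL5 and 5S ribosomal RNA, took 1.20% to 1.41% and 1.51% to 1.87%. Of the stalk proteins beside RPLP0, RPLP2 took a higher share of the 77-gene sum, 1.15% to 1.26% in the control libraries and 1.43% to 1.74% in the others, and RPLP1 overlapped, at 1.47% to 1.81% and 1.36% to 1.72%. Library c of siYT_XMU is included in these ranges.

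**Figure D4:**
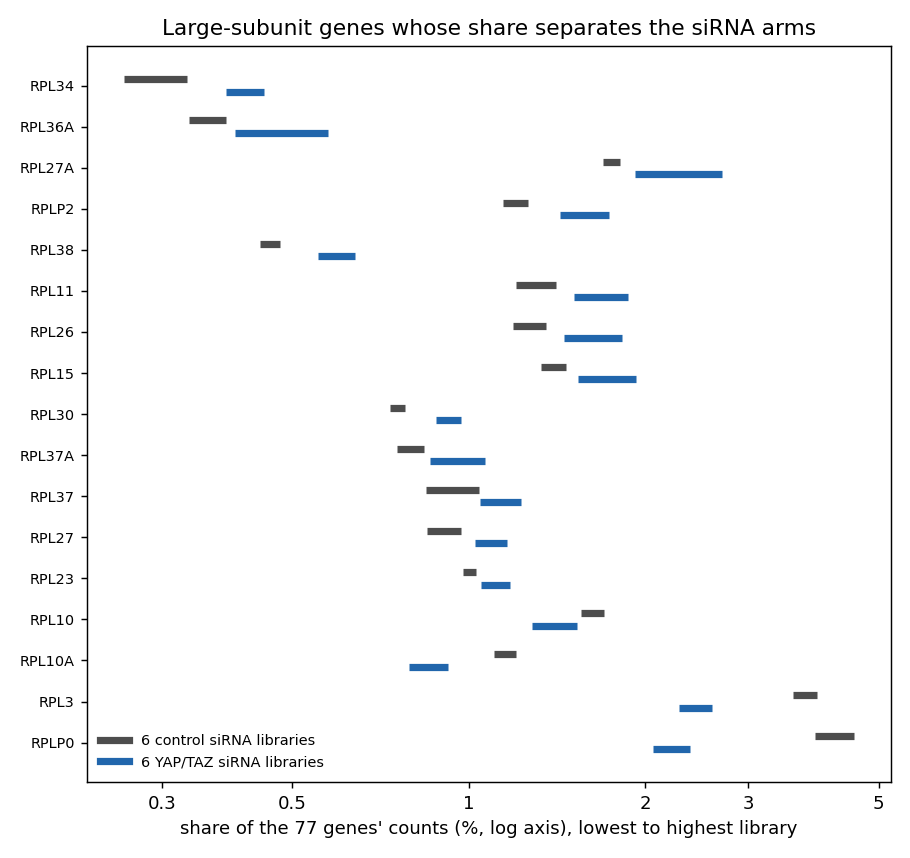
Range from the lowest to the highest library of a gene's share of the 77 genes' summed counts (x axis, percent, log axis), for the large-subunit genes (y axis) among the 24 whose 6 control siRNA libraries and 6 YAP and TAZ siRNA libraries do not overlap. RPLP0 moves from 3.90% to 4.54% down to 2.07% to 2.38%, and RPL34 from 0.258% to 0.331% up to 0.386% to 0.448%.

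XMU-MP1 in control siRNA gave 77 positive log2 fold changes, with a median of 0.19 against -0.02 for all genes, and none passed the test. By edgeR 0 of the 77 genes rose and 0 fell, where 4.0% and 5.26% of all genes did, and 1 of the 77 had an unadjusted p under 0.05. DESeq2 and limma-voom also called 0. In 16 of the 77 genes all siC_XMU libraries lay above all siC_DMSO libraries, where 18.6% of all genes had this order. The median was 0.10 without siC_XMU library a and 0.30 without siC_XMU library c.

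RPS16, a small-subunit protein whose tail reaches the decoding site, had the highest value. Its CPM values came to 539, 536 and 555 in siC_DMSO and 1026, 956 and 763 in siC_XMU, without overlap, and its log2 fold change was 0.75 (SE 0.37, adjusted p 0.248 by edgeR). RPL28, a large-subunit protein, had CPM values of 719, 759.6 and 744 in siC_DMSO and 1138, 1177 and 860.1 in siC_XMU, also without overlap, and a log2 fold change of 0.51 (SE 0.22, adjusted p 0.180 by edgeR). RPS2 lay at 0.51, RPL41 at 0.41 and RPS20 at 0.40. The lowest were RPL34 at 0.0039, RPL37 at 0.03, RPL21 at 0.03, RPL5 at 0.04 and RPS27A at 0.07. RPL3, RPLP0 and RPS6 lay at 0.31, 0.35 and 0.22, each without overlap of libraries and none called. In the fit without siYT_XMU library c, which is no part of this contrast, 3 of the 77 genes rose and 0 fell, where 5.90% of all genes rose. They were RPS16 (adjusted p 0.0150), RPS2 (0.0421) and RPS20 (0.0444) by edgeR. With the compared groups fitted alone 8 rose, where 12.1% of all genes did.

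After the siRNA against YAP and TAZ, XMU-MP1 gave positive values for 76 of the 77 genes, with a median of 0.37 against 0.02 for all genes. With all libraries 0 genes rose and 0 fell by edgeR, where 4.19% and 7.92% of all genes did, and 6 had an unadjusted p under 0.05. DESeq2 called 9 higher, limma-voom 1, and edgeR with upper-quartile factors 4, where 9.18%, 5.57% and 6.78% of all genes were called higher. RPS26 had the highest value at 0.58 (adjusted p 0.0713 by edgeR, and 0.0285 with pseudogene counts added), then RPL28 at 0.56, RPLP1 at 0.56, RPS28 at 0.56 and RPS2 at 0.55. The lowest were RPS9 at -0.32, RPS25 at 0.16, RPL9 at 0.18, RPS16 at 0.26 and RPS27A at 0.27. In RPS4X, 1 of the 77, all siYT_XMU libraries lay above all siYT_DMSO libraries, where 10.5% of all genes had this order.

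The fit without siYT_XMU library c called 71 of the 77 genes higher and 0 lower, where 6.65% of all genes were higher, with a median of 0.64 against 0.05 for all genes. Those not called included RPS9, RPS25, RPS15A, RPS18 and RPL32. Libraries a and b lay above all siYT_DMSO libraries for 75 genes, where 22.9% of all genes had this order. RPS28 had the highest value at 0.90. The log2 fold change of RPLP0 was 0.60 (adjusted p 0.0255), that of RPL3 0.75 (0.0109) and that of RPS6 0.52 (0.0248), all by edgeR. These calls rest on siYT_XMU libraries a and b. With all 3 libraries, none of the 71 genes was called by edgeR with TMM factors, the filter by group and the deposited counts. The median was 0.15 without library b and 0.29 without library a. On the deposited FPKM with a pseudocount of 0.1 it was -0.12, against -0.36 for all genes. The part that the ribosomal RNA share or the depth of library c has in this was not tested.

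**Figure D5:**
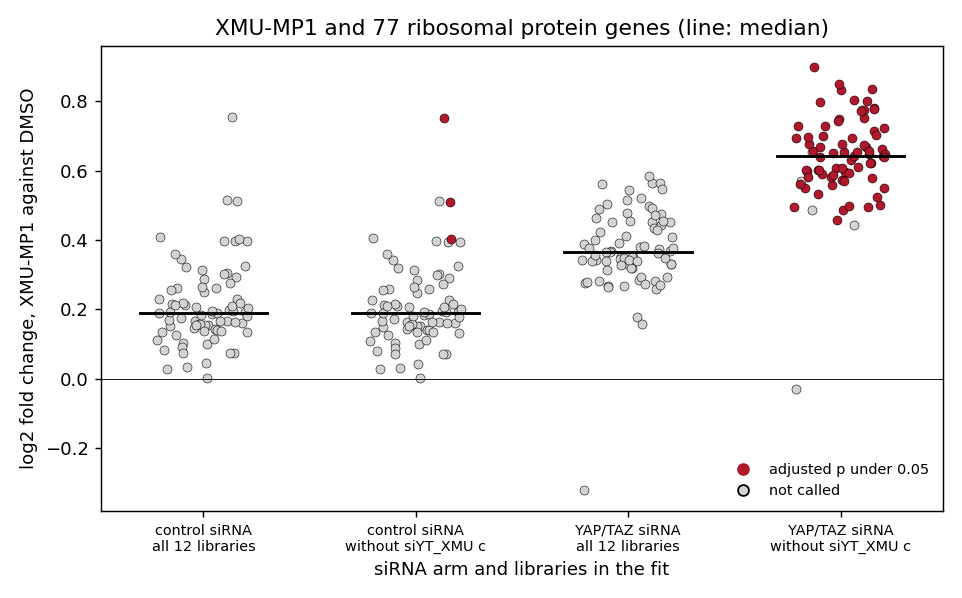
Log2 fold change for XMU-MP1 against DMSO (y axis) of the 77 genes in each siRNA arm, with all 12 libraries and without siYT_XMU library c (x axis), with genes called at an adjusted p of 0.05 by edgeR in red. The medians are 0.19 in both fits with control siRNA, and 0.37 with all libraries and 0.64 without library c after siRNA against YAP and TAZ.

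The difference between the XMU-MP1 effects of the siRNA arms was tested as an interaction, which called none of the 77 genes with all libraries. By edgeR 0 were higher and 0 lower, where 0.860% and 1.73% of all genes were, and 0 had an unadjusted p under 0.05. DESeq2 and limma-voom called 0 as well. The median difference was 0.18 against 0.07 for all genes, and 71 of the 77 were positive. The lowest were RPS9 at -0.51, RPS16 at -0.49, RPL41 at -0.13, RPS25 at -0.03 and RPL9 at -0.01. The highest included RPL21 at 0.42 (SE 0.34, adjusted p 0.570 by edgeR), RPL34 at 0.32, RPL37 at 0.31 and RPS28 at 0.30. Leaving out siYT_XMU library c gave a median of 0.44 and 1 called gene, RPL21 at 0.70 (SE 0.16, adjusted p 0.0400 by edgeR), where 2.07% of all genes were called higher. With a replicate block added to that fit no gene of the 77 was called higher. RPL21 had CPM values of 588, 581 and 534 in siC_DMSO, 645, 554 and 543.5 in siC_XMU, 402, 425 and 435 in siYT_DMSO, and 668, 727 and 330.04 in siYT_XMU. Leaving out siYT_XMU library b gave a median of -0.06, leaving out siC_XMU library c gave 0.08, and on FPKM with a pseudocount of 0.1 it was -0.22, against -0.26 for all genes. Between the XMU-MP1 comparisons in each siRNA arm, which share no library, the fold changes of the 77 genes had a Pearson r of 0.31 and a Spearman rho of 0.50, and 0.40 and 0.51 without RPS9.

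Among ribosomal proteins whose names the rule does not cover are FAU, made as a fusion with a ubiquitin-like protein, and RACK1, a scaffold on the small subunit. With all libraries neither was called in any of the 5 comparisons. In DMSO their log2 fold changes after the siRNA were 0.11 and -0.24. When siYT_XMU library c was left out both rose with XMU-MP1 after the siRNA (0.79 and 0.56), and FAU rose after the siRNA in XMU-MP1 (0.61).

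Of 8 paralogues of ribosomal proteins 7 were tested, and 0 rose and 2 fell after the siRNA in each medium, with medians of -0.16 in DMSO and -0.32 in XMU-MP1. Of all genes, 16.1% rose and 16.0% fell in DMSO, and 17.7% and 18.6% in XMU-MP1. In XMU-MP1, leaving out siYT_XMU library c gave 2 higher and 2 lower, where 19.3% and 18.7% of all genes were, and turned the median to 0.08. RPL39L, a paralogue of RPL39 best known from the testis, had CPM values of 8.76, 8.31 and 8.39 in siC_DMSO and 0.667, 0.754 and 1.64 in siYT_DMSO, with no overlap. Its log2 fold change was -3.04 (SE 0.64, adjusted p 0.00322 by edgeR) in DMSO and -2.75 (adjusted p 0.00567) in XMU-MP1. RPL22L1, a paralogue of RPL22, had CPM values of 86.1, 77.8 and 72.5 in siC_DMSO and 38.1, 31.0 and 29.8 in siYT_DMSO, also with no overlap. Its values were -1.26 (SE 0.25, adjusted p 0.00246 by edgeR) and -0.85 (adjusted p 0.0193). XMU-MP1 called none of the 7 in either arm with all libraries, with medians of -0.02 in control siRNA and 0.11 after the siRNA. Of all genes 4.0% rose and 5.26% fell in control siRNA, and 4.19% and 7.92% after the siRNA. Without library c 1 fell in control siRNA and 1 rose after the siRNA, where the median was 0.35. Of all genes 7.95% fell and 6.65% rose in these respective comparisons.

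Other translation genes of the TOP class form a list of 22, of which 21 were tested. After the siRNA in DMSO 1 rose and 5 fell, where 16.1% and 16.0% of all genes did, with a median of -0.14. NPM1, a nucleolar chaperone of ribosome assembly, had CPM values of 3484, 3178 and 3083 in siC_DMSO and 950.2, 856 and 956 in siYT_DMSO, without overlap. Its log2 fold change was -1.82 (adjusted p 1.53e-05 by edgeR), that of HNRNPA1, an RNA-binding protein, -1.80 (3.84e-05), and that of NAP1L1, a histone chaperone, -1.11 (2.38e-04). The gene that rose was TPT1, the translationally controlled tumour protein, at 0.57. In XMU-MP1 1 rose and 4 fell, where 17.7% and 18.6% of all genes did, with a median of 0.04, and NPM1 lay at -1.32. Without siYT_XMU library c 5 of 22 rose and 4 fell there, where 19.3% and 18.7% of all genes did, with a median of 0.15. XMU-MP1 called 0 genes of the list in control siRNA, where 4.0% of all genes rose and 5.26% fell. The median of the list was 0.08. After the siRNA 1 rose with XMU-MP1, NPM1 at 0.63 (adjusted p 0.0295 by edgeR), where 4.19% of all genes did, with a median of 0.31. Without siYT_XMU library c 10 of 22 rose and 1 fell there, where 6.65% and 8.37% of all genes did, with a median of 0.47.

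The mTORC1 pathway and its regulators of TOP messenger RNAs gave 23 tested genes. After the siRNA in DMSO 7 rose and 2 fell, where 16.1% and 16.0% of all genes did, with a median of 0.42. PDCD4, an inhibitor of the translation initiation helicase, rose by 2.11 on the log2 scale (adjusted p 1.31e-04 by edgeR), TSC2, a brake on mTORC1, by 1.25 (6.40e-04) and EIF4EBP2, a repressor of cap-dependent initiation, by 0.92 (0.00483). In XMU-MP1 5 rose and 3 fell, where 17.7% and 18.6% of all genes did, with a median of 0.11. The called genes included TSC2 at 1.58 and PDCD4 at 2.10. In the fit without siYT_XMU library c 5 rose and 2 fell, where 19.3% and 18.7% of all genes did. The median turned to -0.12. XMU-MP1 in control siRNA gave 3 higher and 2 lower, where 4.0% and 5.26% of all genes were, with a median of 0.09. These include SESN3, a stress-induced inhibitor of mTORC1, at 4.09 (adjusted p 0.00261 by edgeR), EIF4EBP2 at 1.24 (0.00439) and RPTOR, a subunit of mTORC1, at -1.41 (0.00643). After the siRNA, where 4.19% of all genes rose with XMU-MP1, 1 of the list did, SESN3 at 1.92 (adjusted p 0.0477 by edgeR). That call was lost without siYT_XMU library c (0.110 by edgeR). In that fit 1 gene of the list rose and 1 fell, where 6.65% and 8.37% of all genes did. The median was 0.01 with all libraries and 0.05 without that library.

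LARP1, the TOP-binding protein, is named after its values were seen. Its CPM values came to 519, 450.4 and 449.7 in siC_DMSO, 259.6, 242 and 270.3 in siC_XMU, 326, 216 and 315 in siYT_DMSO, and 159, 153 and 297 in siYT_XMU. The siC_DMSO libraries were above those of siC_XMU and siYT_DMSO. The log2 fold change was -0.73 after the siRNA in DMSO (adjusted p 0.0417 by edgeR) and -0.88 with XMU-MP1 in control siRNA (adjusted p 0.0477 by edgeR).

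Among 15 chaperones and nuclear importers that carry new ribosomal proteins to the nucleolus, 0 rose and 6 fell after the siRNA in DMSO, with a median of -0.36. Of all genes 16.1% rose and 16.0% fell there. The importin IPO5 lay at -1.49 (adjusted p 1.33e-05 by edgeR), PDCD2L, an adaptor in small-subunit assembly, at -2.03 (7.10e-04), and the importin KPNB1 at -0.66 (0.00233). In XMU-MP1 1 rose and 8 fell, where 17.7% and 18.6% of all genes did, with a median of -0.51. Without siYT_XMU library c 2 rose and 7 fell, where 19.3% and 18.7% of all genes did, with a median of -0.59. GRWD1, a chaperone of RPL3, had CPM values of 44.9, 43.1 and 49.5 in siC_DMSO, 124, 103 and 107 in siC_XMU, 48.2, 52.8 and 52.1 in siYT_DMSO, and 33.0, 19.6 and 25.1 in siYT_XMU. It was higher in XMU-MP1 with control siRNA and lower after the siRNA against YAP and TAZ, with no overlap in either arm. The log2 fold changes were 1.28 (adjusted p 0.00217 by edgeR) and -0.98 (0.00591), and the test of their difference gave -2.26 (SE 0.26, adjusted p 0.00389 by edgeR). Leaving out siYT_XMU library c gave -2.24 for it (adjusted p 0.00542 by edgeR).

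Mitochondrial ribosomal proteins, which build the separate ribosome of the mitochondrion, gave 77 tested genes of 78. After the siRNA in DMSO 1 rose and 18 fell, where 16.1% and 16.0% of all genes did, with a median of -0.33. MRPL11 had CPM values of 87.5, 83.9 and 89.9 in siC_DMSO and 34.2, 20.8 and 26.8 in siYT_DMSO, without overlap. Its log2 fold change was -1.68 (adjusted p 5.86e-05 by edgeR), that of MRPL16 -1.15 (1.98e-04) and that of MRPL3 -1.44 (2.11e-04). In XMU-MP1 3 rose and 12 fell, where 17.7% and 18.6% of all genes did, with a median of -0.16. Without siYT_XMU library c 14 rose and 10 fell there, where 19.3% and 18.7% of all genes did, with a median of 0.02. With XMU-MP1 0 rose and 4 fell in control siRNA, where 4.0% and 5.26% of all genes did. After the siRNA 0 rose and 2 fell with XMU-MP1, where 4.19% and 7.92% of all genes did. In that last comparison 10 rose and 1 fell without siYT_XMU library c, where 6.65% and 8.37% of all genes did.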

How the data were processed

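RNA-seq libraries of MCF10A cells, 3 in each of 4 groups, were analysed from 1 gene table with 24 value columns. It holds raw read counts and FPKM as deposited by the authors. Per the submitters' processing notes cutadapt, FastQC, HISAT2, StringTie and edgeR were used with GRCh38.p13, with no versions or roles. How multi-mapped reads were assigned is not given in the sources used here. The deposited FPKM are per transcript length and were used for levels between genes.

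Counts were tested with edgeR 4.0.16 in R 4.3.3 (low-count filter by group, TMM factors, 4 group means, quasi-likelihood F test, Benjamini-Hochberg adjustment over 18143 genes, threshold 0.05). CPM carry the TMM factors. Alternatives were DESeq2 1.42.0, limma 3.58.1 (voom, or log2 of FPKM plus 0.1 or 1), other scalings and filters, pseudogene counts added, ribosomal RNA entries (57) removed, a replicate block and leaving out each library. The edgeR fit was tested on simulated data. Genes named are RPL3, RPS6, RPLP0, the 5 highest and 5 lowest fold changes per comparison, the 5 highest and 5 lowest mean FPKM, called genes moving against most calls and, per list, the 3 called genes with the smallest adjusted p; others were named after their values were seen, and some genes the rule names are not reported here. The genes and lists were chosen with earlier results of these data known. Depth ran from 8243351 to 67953633 counts per library, and its lowest library has the least precision.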

Additional observations from a re-analysis of the deposited data

How the results depend on the processing

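Signs were compared with the edgeR fit of all libraries, for the genes that the naming rule gives. Among these, no value called in either fit changed sign. Calls made only without siYT_XMU library c are less secure. That fit called 34 of the 77 genes higher in the knockdown in XMU-MP1 and 71 with XMU-MP1 after the knockdown. On FPKM with a pseudocount of 0.1, only 1 and 15 of the 77 values were positive there. The median log2 fold change of the 77 genes changed sign in 3 comparisons, as given above: on FPKM in the knockdown in XMU-MP1, XMU-MP1 after the knockdown and the interaction, and without siYT_XMU library b in the first and last of them. For the knockdown in DMSO, the count of lower genes (2) was 8 with compared groups only (22% of all genes), 4 with DESeq2 (19.2%), 5 with voom (20.9%) and 1 on FPKM with either pseudocount (18% and 20.2%). It ranged from 1 to 8 over fits leaving out 1 library. The median (-0.04) was -0.23 on FPKM with either pseudocount, where that of all genes was -0.14 and -0.05. For the knockdown in XMU-MP1, the count of higher genes (0) was 2 with RLE factors (19.8% of all genes), 4 with upper-quartile factors (21.4%), 2 with TMM factors computed without the 77 genes (18.5%), 2 with at least 1 CPM in 3 libraries (22.8%), 4 with DESeq2 (23%), 2 with voom (20.7%) and 1 with pseudogene counts added (18.1%), and 0 to 34 leaving out 1 library. The count of lower genes (2) was 1 with no filter (11.2%), with compared groups only (15.4%) and with pseudogene counts added (18.7%), 3 on FPKM with a pseudocount of 1 (30%), and 1 to 2 leaving out 1 library. For XMU-MP1 in control siRNA, the count of higher genes (0) was 8 with compared groups only (12.1% of all genes) and 0 to 3 leaving out 1 library. For XMU-MP1 after the knockdown it (0) was 1 with RLE factors (5.12%), 4 with upper-quartile factors (6.78%), 1 with at least 1 CPM in 3 libraries (6.3%), 9 with DESeq2 (9.18%), 1 with voom (5.57%) and 1 with pseudogene counts added (4.29%), and 0 to 71 leaving out 1 library. For the interaction it was 0 to 1 leaving out 1 library. The highest of each of these ranges was without siYT_XMU library c, except for the lower genes of the knockdown in XMU-MP1. Without that library 18.8% of all genes were lower in the knockdown in DMSO. In the knockdown in XMU-MP1 19.3% were higher and 18.7% lower. With XMU-MP1 5.90% were higher in control siRNA and 6.65% after the knockdown, and 2.07% in the interaction. Upper-quartile factors moved the median of all genes to 0.20, 0.18 and 0.22 in the knockdown in XMU-MP1, XMU-MP1 after the knockdown and the interaction. The cause was not tested.

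These alternatives were chosen after seeing the data. With siYT_XMU left out of the fit, 11 genes were lower in the knockdown in DMSO and 4 higher with XMU-MP1 in control siRNA, where 23.3% and 8.28% of all genes were. Without siYT_XMU library c, voom gave 10 lower in the knockdown in DMSO (20.9% of all genes), and 42 higher (22.8%) and 1 lower (19.4%) in the knockdown in XMU-MP1. It gave 7 (8.23%) and 73 (9.58%) higher with XMU-MP1 in control siRNA and after the knockdown, and 1 (3.2%) in the interaction. TMM factors computed without the 77 genes gave 8 lower (18.6%), then 33 (19.1%), 3 (6.14%), 65 (6.1%) and 1 (1.98%) higher.

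The replicate block gave 2 lower genes in the knockdown in DMSO (16% of all genes), 1 higher (16.7%) and 1 lower (18.6%) in the knockdown in XMU-MP1, and 0 in the other comparisons. With the replicate block and without siYT_XMU library c there were 9 lower (19%), then 34 higher (18.5%) and 1 lower (18.2%), 3 (6.26%) and 62 (5.72%) higher, and 0 in the interaction, where RPL21 had an adjusted p of 0.0556 by edgeR. The labels do not say whether the letters pair libraries. Of 18 same-letter pairs 2 had a correlation of deviations over 0.1 (range -0.02 to 0.17). For 11 of 12 libraries, however, the closest match in another group carried the same letter, so pairing by letter was not settled.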
